A study of Mus musculus with 3 samples.

Results

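Macrophage_1 is the largest macrophage cluster among the immune cells of mouse kidneys, whose outer medulla (OM), inner medulla (IM) and cortex had been dissected apart. Its members were all cells of the deposited count table whose cluster name was Macrophage_1, which gave 1996 of 20266 cells in 23 named clusters. The cells came from untouched wild-type male C57BL/6J mice and were sorted as live CD45+ cells after perfusion and enzymatic digestion of each compartment. Each of 3 facilities (Aachen, Bonn and Hamburg) supplied 1 dataset with the 3 compartments, so that 3 datasets stood behind each compartment and 9 libraries (1 compartment of 1 dataset each) behind the series. How many animals each library pooled was not given in the sources used here. The p-values therefore weigh differences between compartments against their spread over these 3 datasets, not over animals. Differences in level between the datasets were removed by the block.

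Macrophage_1 supplied 294 cells in Aachen cortex, 656 in Aachen OM, 202 in Aachen IM, 24 in Bonn cortex, 30 in Bonn OM, 285 in Bonn IM, 134 in Hamburg cortex, 224 in Hamburg OM and 147 in Hamburg IM. The Bonn cortex and Bonn OM libraries thus stood apart by their few members. The median number of UMIs (unique molecular identifiers, 1 per captured transcript) per member was 803 to 1500.5 in Aachen, whose libraries used v2 chemistry, and 3217 to 5887 in the Bonn and Hamburg libraries, which used v3. The summed UMIs of the members ranged from 100592 in Bonn cortex to 2029910 in Bonn IM. Of the 1996 members, 46 carried a barcode sequence that also occurred in another library, 7 of them within the same dataset only. A doublet caller marked 13 members.

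Resident macrophages of the kidney line the tubules and capillaries, take up debris and immune complexes, present antigen on MHC class II and secrete the complement component C1q. Immediate early genes such as Fos, Jun and Atf3 encode transcription factors and regulators that are switched on within minutes of many kinds of stimulation without new protein synthesis. Heat shock genes encode chaperones that hold or refold proteins under stress, and chemokines such as Ccl3, Ccl4 and Cxcl2 recruit other leukocytes.

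The label was first compared with its markers. C1qa, a chain of C1q, reached 43.8 to 75.2 UMIs per 10000 in the 9 libraries of Macrophage_1, against a median of 4.36 in monocytes, 2.18 in conventional dendritic cells of type 2 (cDC2) and 0.25 in T and B cells. Cd74, the invariant chain of MHC class II, reached 649 to 737 UMIs per 10000, against a median of 431 in cDC2 and 118 in T and B cells. Adgre1, which encodes the macrophage surface protein F4/80, reached 1.92 to 6.96 UMIs per 10000, against a median of 1.0 in monocytes and 0.29 in cDC2. The lowest Macrophage_1 library was above the highest monocyte library for each marker, the monocyte maxima being 13.9, 157 and 1.32.

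The same markers did not separate Macrophage_1 from the other resident macrophage clusters (Macrophage_2 with 1680 cells, Macrophage_3 with 1418 and Isg+_Macrophage with 273). C1qa, Cd74 and Adgre1 were each higher in Macrophage_1 than in the sum of the other clusters in 1 of 9 libraries only. The median log2 ratio of the level in Macrophage_1 to that in the other clusters was -0.18 for C1qa, -0.05 for Cd74 and -0.31 for Adgre1. Of the 15 resident macrophage markers 14 reached 1 UMI per 10000, 1 was higher in Macrophage_1 in all 9 libraries and 3 were lower. Among the latter, C1qb, another chain of C1q, and Cd68, a lysosomal membrane protein, had median log2 ratios of -0.21 and -0.20. Mertk, a receptor for apoptotic cells, was close to 0 in both, with 0 to 0.193 UMIs per 10000 in Macrophage_1. After each cell was thinned to 500 UMIs, 91.5% of 1928 Macrophage_1 cells held a C1qa UMI (95% exact binomial interval 90.2 to 92.7), against 2.25% of 9245 T and B cells. The intervals cover counting error only, and 68 members with fewer UMIs were left out. Before thinning the shares were 98.3% and 5.61%, at median depths of 1661.5 and 2537 UMIs per cell.

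Macrophage_1 made up very different shares of the resident macrophages from library to library. It was 59.3% of the resident macrophages in Aachen cortex (95% exact binomial interval 54.8 to 63.6), 33.6% in Aachen OM (31.5 to 35.8) and 33.9% in Aachen IM (30.1 to 37.8). The Bonn values were 4.45% in cortex (2.87 to 6.55), 17.9% in OM (12.4 to 24.5) and 44.4% in IM (40.5 to 48.3). Those of Hamburg were 57.8% in cortex (51.1 to 64.2), 46.4% in OM (41.9 to 50.9) and 56.8% in IM (50.5 to 62.9). The cortex therefore held the highest share in Aachen and Hamburg and the lowest in Bonn, and no order of the compartments was shared by the 3 datasets. Of all immune cells, Macrophage_1 made up between 0.655% in Bonn cortex and 21.1% in Aachen cortex.

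**Figure D1:**
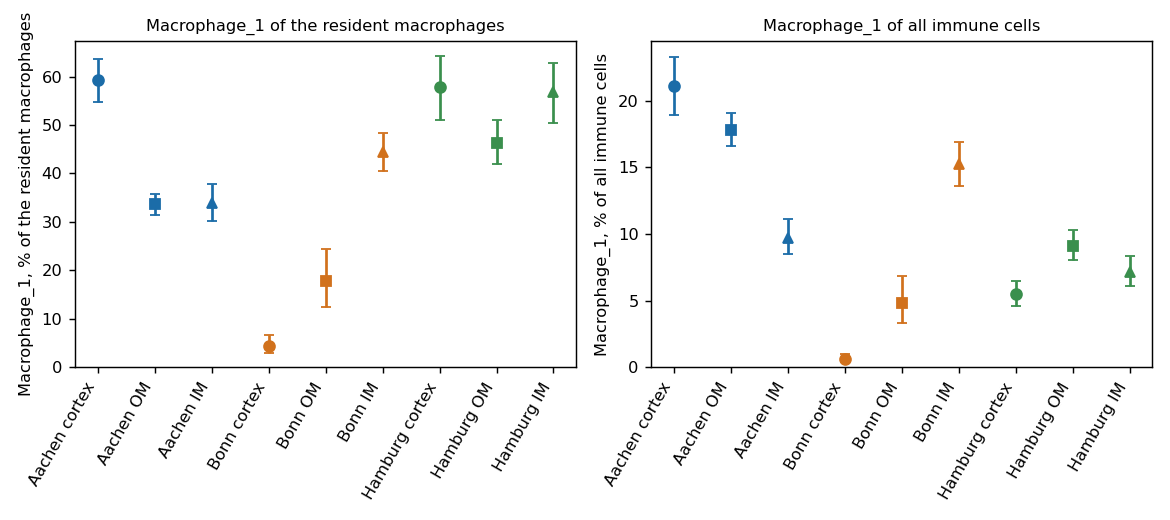
Macrophage_1 as a percentage of the resident macrophages (left) and of all immune cells (right) in each of the 9 libraries. Points are shares, bars are 95% exact binomial intervals, colour marks the dataset and shape the compartment. Bonn cortex lies lowest in both panels, at 4.45% and 0.655%.

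The barcodes of each Aachen compartment carried 2 suffixes, whose meaning was not given in the sources used here, and the shares differed between them too. In Aachen cortex, Macrophage_1 was 74.4% of 281 resident macrophages under 1 suffix and 39.5% of 215 under the other. The pairs of shares were 30.5% and 38.3% in Aachen OM and 28.4% and 38.5% in Aachen IM. The gap between the suffixes in cortex was larger than that between the Aachen cortex and OM totals, and a compartment order of this share was not tested.

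What set Macrophage_1 apart from Macrophage_2, Macrophage_3 and Isg+_Macrophage together was a block of immediate early, heat shock and inflammatory genes. Malat+_Macrophage was not among these other resident macrophages and is compared further below. Clusters were drawn from the expression of these same cells, so this is a description without a test. Among 1218 genes at 1 UMI per 10000 or more, 89 (7.31%) were higher in Macrophage_1 in all 9 libraries and 86 (7.06%) were lower. The 10 genes with the highest smallest ratio included Atf3, Cxcl2, Junb, Ier2, Dnajb1, Hspb1, Zfp36, Btg2 and Hspa1a. Atf3, Junb, Ier2, Zfp36 and Btg2 are immediate early genes, Dnajb1, Hspb1 and Hspa1a encode chaperones and Cxcl2 encodes a neutrophil chemokine.

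**Figure D2:**
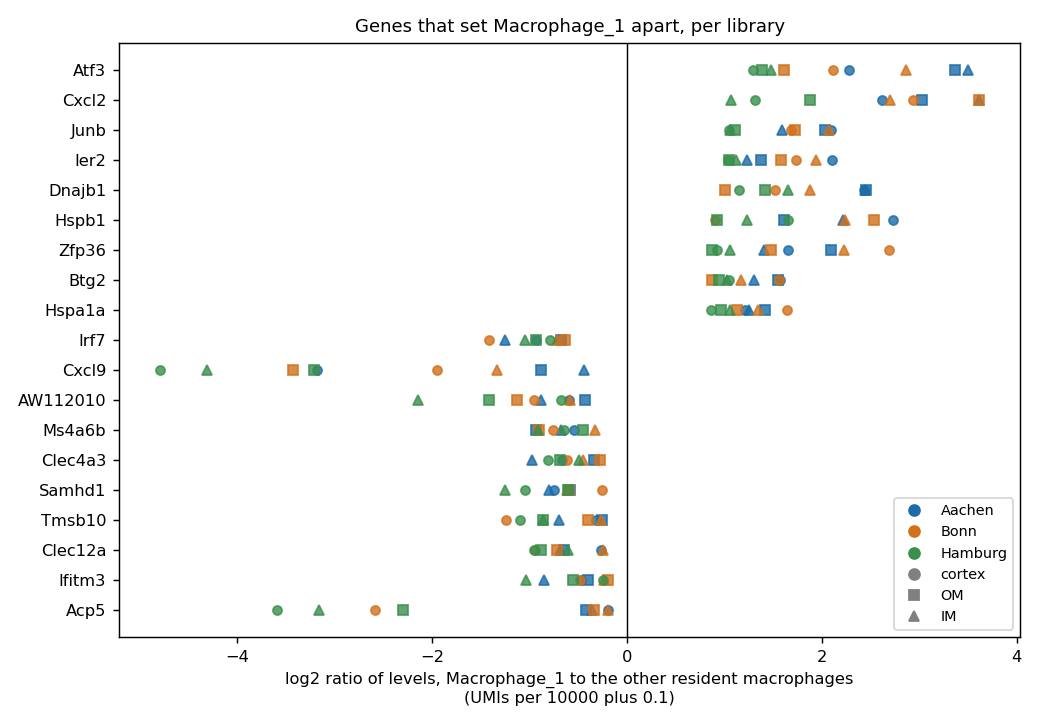
The log2 ratio of the level in Macrophage_1 to that in the other resident macrophages, for 9 of the 10 genes that were highest and the 10 that were lowest by the smallest ratio over libraries. Each point is 1 of 9 libraries, coloured by dataset and shaped by compartment, and the vertical line marks equal levels. All points of the upper 9 genes lie to the right of it, with medians from 1.17 for Btg2 to 2.70 for Cxcl2.

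Atf3, a stress-induced transcription factor, was at 17.3, 11.2 and 16.3 UMIs per 10000 in Macrophage_1 of Aachen cortex, OM and IM, at 2.88, 2.19 and 4.49 in Bonn and at 60.6, 42.0 and 52.5 in Hamburg. In the other resident macrophages the same libraries gave 3.49, 1.0 and 1.35, then 0.590, 0.648 and 0.531, then 24.6, 16.1 and 18.8. Hamburg was thus high and Bonn low in both, while Macrophage_1 was above the other clusters within each library. The log2 ratio for Atf3 ran from 1.30 to 3.49 over the libraries.

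Of the 16 immediate early genes, 14 reached the level minimum, 12 were higher in Macrophage_1 in all 9 libraries and none was lower in all. Their median log2 ratio was 1.41, against -0.11 over all 1218 genes, of which 7.31% were higher in all libraries and 7.06% lower. Fos, Jun and Dusp1 had median log2 ratios of 1.95, 1.34 and 1.60. The summed level of the list in Macrophage_1 was 236 to 276 UMIs per 10000 in the Aachen libraries, 68.4 to 163 in those of Bonn and 503 to 550 in those of Hamburg. Among all clusters, Macrophage_1 ranked between the first and the third for this sum within each library and the first in 4 of 9. Innate lymphoid cells (ILC2) had a higher median, 323 against 262 UMIs per 10000, so high immediate early genes were shared with some lymphoid and myeloid clusters.

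The heat shock genes were the next group. All 11 reached the level minimum and 9 were higher in Macrophage_1 in all 9 libraries, against 7.31% of all 1218 genes. The list had a median log2 ratio of 1.07. Hspa1a, an inducible Hsp70, ran from 11 in Bonn cortex to 80.1 in Hamburg IM in Macrophage_1, and from 3.46 to 38.6 in the other clusters. Reads of Hspa1a and its near-identical neighbour Hspa1b may have been divided between them in counting. The summed level of the list was 71.2 to 434 UMIs per 10000 in Macrophage_1 and ranked the first of all clusters in 7 of 9 libraries and the 11th in the lowest.

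**Figure D3:**
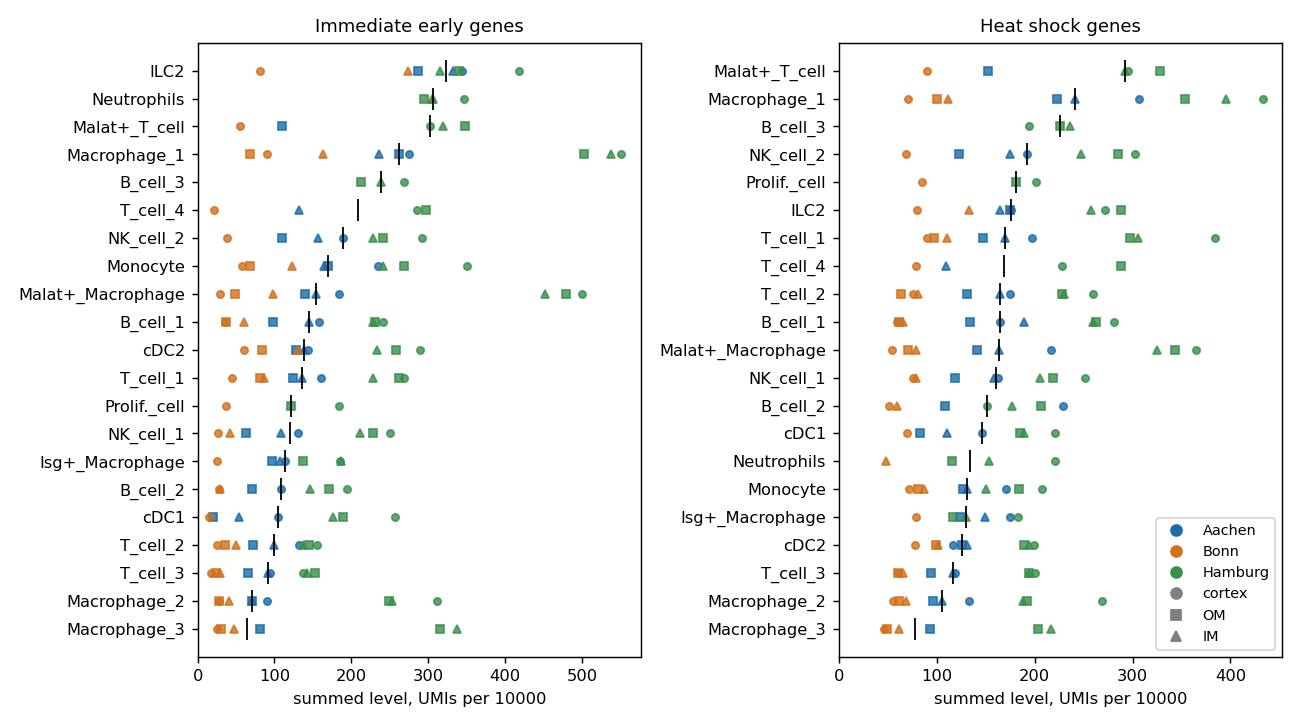
Summed level of 16 immediate early genes (left) and 11 heat shock genes (right) in UMIs per 10000, by cluster. Points are libraries with at least 20 cells of the cluster, coloured by dataset and shaped by compartment, and the black tick is the median. Macrophage_1 has medians of 262 and 241, Macrophage_2 of 71.4 and 105 and Macrophage_3 of 63.8 and 77.7. The Macrophage_3 medians cover 6 libraries, without Aachen cortex, Aachen IM and Hamburg cortex, and are not like for like with the others. Each Macrophage_1 library lies above Macrophage_2 of the same library in both panels, and above Macrophage_3 in all 6.

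The promoters of the heat shock genes are shown here because the chaperone genes moved together in Macrophage_1. The 250 bases before each start were searched on both strands for GAANNTTC, the paired core of the heat shock element. Of 11 heat shock genes, 8 matched the RefSeq promoter table (build GRCm38.p6) and 6 of these held the letters (75%), against 7.73% of 27025 genes with a promoter. Hspd1 and Hspe1 start next to each other in opposite directions and share 1 match. A match is a description and no evidence of binding. Stretches are given 5′ to 3′ on the gene's strand with the match in capitals.
Hspa1a, chr17:34972227-34972286, minus strand: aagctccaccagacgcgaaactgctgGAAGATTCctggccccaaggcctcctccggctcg
Hspb1, chr5:135887776-135887835, plus strand: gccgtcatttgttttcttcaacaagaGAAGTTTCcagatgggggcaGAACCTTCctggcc
Dnaja1, chr4:40722318-40722377, plus strand: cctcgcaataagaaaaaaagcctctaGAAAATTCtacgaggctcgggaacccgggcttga
Hspe1, chr1:55088038-55088097, plus strand: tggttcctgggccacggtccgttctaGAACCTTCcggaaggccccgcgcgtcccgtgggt

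These 4 genes had median log2 ratios in Macrophage_1 of 1.21 (Hspa1a), 1.66 (Hspb1), 0.80 (Dnaja1) and 0.97 (Hspe1). Among the 14 immediate early genes matched, the palindromic cAMP response element TGACGTCA was present in the promoters of Btg2 and Dusp1 (14.3%, against 1.77% of all genes), and the CArG box bound by serum response factor in those of Egr2 and Zfp36 (14.3% against 1.62%). The AP-1 letters TGANTCA were in none of the 14, against 7.82% of all genes. The Btg2 and Zfp36 stretches show these elements.
Btg2, chr1:134079288-134079347, minus strand: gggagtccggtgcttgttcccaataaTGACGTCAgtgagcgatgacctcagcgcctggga
Zfp36, chr7:28379251-28379312, minus strand: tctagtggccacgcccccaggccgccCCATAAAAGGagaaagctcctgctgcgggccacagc

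Inflammatory mediators were the second group. Ccl4 was at 143, 82.8 and 145 UMIs per 10000 in Macrophage_1 of Aachen cortex, OM and IM, at 27.2, 16.2 and 24.0 in Bonn and at 132, 114 and 108 in Hamburg, and at 3.22 to 82.7 in the other resident macrophages. Its log2 ratio was above 0 in all 9 libraries, from 0.64 to 3.04. Ccl3 had a median log2 ratio of 2.03, and Il1b, which encodes interleukin-1 beta, of 1.23. Tnf was also higher in all 9 libraries, by a median of 0.94. Of 18 chemokines, 13 reached the level minimum, 3 were higher in all libraries (Ccl3, Ccl4 and Cxcl2) and 2 were lower, Cxcl9 among them. Over all 1218 genes at that minimum, 7.31% were higher and 7.06% lower. In thinned cells, Cxcl2 was seen in 19.6% of Macrophage_1, 2.48% of Macrophage_2, 4.08% of Macrophage_3 and 0.508% of T and B cells, and Il1b in 31.6%, 14.6%, 10.5% and 0.530%. The libraries differed widely, as Cxcl2 ran from 0% to 40.6% of thinned Macrophage_1 cells between them and Il1b from 16.7% to 63.8%. Cxcl2 ran from 0% to 15.8% in Macrophage_2 and from 0% to 32.5% in Macrophage_3.

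The genes lower in Macrophage_1 were led by Irf7, Cxcl9, AW112010, Ms4a6b, Clec4a3, Samhd1, Tmsb10, Clec12a, Ifitm3 and Acp5. Irf7, Cxcl9, Samhd1 and Ifitm3 are interferon-induced, and 2 of them, Irf7 and Cxcl9, were also among the 10 genes that led the comparison with Isg+_Macrophage alone. Irf7 was at 0.281 to 1.11 UMIs per 10000 in Macrophage_1 and at 0.525 to 2.0 in the other clusters. Of the 18 genes of the interferon response, 7 reached the level minimum and 3 of them were lower in all 9 libraries. Summed over the 18, the median was 14.6 UMIs per 10000 in Macrophage_1, 12.2 in Macrophage_2, 13.2 in Macrophage_3 and 76.0 in Isg+_Macrophage. Macrophage_3 had 6 and Isg+_Macrophage 7 libraries with enough cells, so these medians cover unlike libraries. By them, Macrophage_1 was below Isg+_Macrophage only. Of 20 genes of cathepsins and the lysosome, 9 were lower in all 9 libraries and none was higher, with a median log2 ratio of -0.20. Their sum had a median of 267 UMIs per 10000 in Macrophage_1, 274 in Macrophage_2, 371 in Macrophage_3 and 227 in Isg+_Macrophage. The gap was thus widest against Macrophage_3, and the Isg+_Macrophage median was lower. Over all 1218 genes at the level minimum, 7.06% were lower and 7.31% higher in all 9 libraries. The thinned cells kept 44 of the 89 higher genes and 22 of the 86 lower ones in all 9 libraries, with 8 of the 10 leading higher genes and 4 of the 10 leading lower genes.

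Against single clusters the leading genes changed in part. Macrophage_1 exceeded Macrophage_2 in all 9 libraries for 77 of 1224 genes, led by Cxcl2, Atf3, Junb and Ier2, and was lower for 131, led by the aspartic protease gene Napsa (median log2 ratio -1.02) and Pilra (-0.97), an inhibitory receptor of myeloid cells. Against Macrophage_3, which had enough cells in 6 libraries, 128 genes were higher, led by Ccl3 (2.16), Atf3 (1.77) and Nfkbiz (1.55), and 126 were lower, led by Gas6 (-1.55), a bridge to apoptotic cells, Maf (-0.70), Pf4 (-1.09) and Trem2 (-0.72), a lipid receptor. Atf3 was thus among the leading higher genes in both comparisons, while the leading lower genes differed. Against Malat+_Macrophage, a cluster of 1043 cells, Macrophage_1 was higher in all 9 libraries for 102 of 1498 genes, led by Ccl4 (1.76) and Il1b (1.22). It was lower for 146, led by Itpkb (-1.12) and Tnrc6b (-1.13). The immediate early and heat shock sums of Malat+_Macrophage had medians of 155 and 164 UMIs per 10000, against 262 and 241 in Macrophage_1. Macrophage_1 was higher in all 9 libraries for both. The gap was small in Hamburg cortex, OM and IM, where the immediate early sums were 500, 480 and 452, against 550, 503 and 537. Against monocytes the highest ratios included Cd81 (3.82) and C1qb (3.77), and the lowest were led by Plac8 (-7.16), S100a6 (-5.28), S100a4 (-6.00) and Ly6c2 (-6.67).

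Markers of other cells were low but not 0 in Macrophage_1. The summed level of 8 T cell markers (7 detected, Trbc1 at 0) was 0 to 0.643 UMIs per 10000 in cortex and 0 to 1.5 in the medullary libraries, and that of 6 B cell markers, all detected, was 0.998 to 5.57 in cortex and 0.811 to 4.56 in the medulla. Monocyte markers summed to 1.40 to 1.89 in cortex and 0.347 to 2.38 in the medulla. The 5 markers of thick ascending limb and distal tubule did not exceed 0.199 in any library.

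The compartment question was asked within Macrophage_1 on counts summed per library, with dataset as a block, and the medulla was the mean of OM and IM. With edgeR's quasi-likelihood test and Benjamini-Hochberg adjustment, 19 of 6261 genes (0.303%) were higher in the medulla and 16 (0.256%) were lower, at an adjusted p under 0.05. Of the 35, 32 moved the same way in all 3 datasets, the exceptions being Ifnb1, Rgs1 and Gm42726. Of the 35, 8 had cortical and medullary libraries that did not overlap, against 1.82% of all genes tested. The 35 were selected on these same libraries, which by itself raises both counts, so neither is separate support. Lyz2, Itgax, Adgre5, Pilra, Mmp12 and Ifnb1 passed the test without any 1 library, and all of them but Adgre5 also wherever they could be tested without a whole dataset. The number of genes called depended on single libraries: it was 15 without Aachen OM, 78 without Aachen IM, 53 without Bonn OM, 22 without Bonn IM and 8 without Hamburg IM, 21 without the Aachen and 10 without the Hamburg dataset. It was 0 without the dataset block, 6 by DESeq2 (Lyz2, Itgax, Adgre5, Mmp12, Ifnb1 and Clec4a2) and 9 without doublets and the members that held 2 or more T or B cell UMIs (8 to 172 per library).

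Lyz2, the lysozyme gene of macrophages (GRCm38 chr10:117277331-117282321, minus strand), had the firmest rise. Its summed level was 3164, 14825 and 3854 CPM (counts per 1000000 of the library, TMM-scaled) in Aachen cortex, OM and IM, 1381, 5904 and 9473 in the Bonn libraries and 2299, 4874 and 5183 in the Hamburg ones. The medullary libraries all lay above the 3 cortical ones. The log2 fold change was 1.65 ± 0.26 (SE, 3 datasets), with an adjusted p of 0.00096 in edgeR's test, and it stayed past the threshold in 18 of 19 alternatives, the exception being the fit without the dataset block. In thinned cells, a Lyz2 UMI was seen in 41.7% to 90.7% of Macrophage_1 across libraries, against 2.74% of T and B cells.

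Itgax, which encodes the integrin CD11c (chr7:128129547-128150657, plus strand), fell. It was at 67.9, 11.7 and 23.6 CPM in Aachen cortex, OM and IM, at 160, 57.4 and 28.5 in Bonn and at 147, 81.2 and 60.1 in Hamburg. Each medullary library was below the cortex of its own dataset, though Hamburg OM was above Aachen cortex. The log2 fold change was -1.55 ± 0.25 with an adjusted p of 0.00096 in edgeR's test. Adgre5, which encodes the adhesion receptor CD97 (chr8:83723251-83741326, minus strand), fell by 1.59 on the log2 scale, from 98.7 ± 51.4 CPM in cortex (SD, n = 3 datasets) to 29.2 ± 12.4 in OM and 38.0 ± 31.8 in IM. Its adjusted p was 0.00066 by edgeR and 0.0549 without the Hamburg dataset.

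Pilra (chr5:137821952-137836281, minus strand) was at 139, 7.0 and 70.9 CPM in Aachen cortex, OM and IM, at 79.8, 36.5 and 18.6 in Bonn and at 112, 40.6 and 63.7 in Hamburg, with no overlap between cortex and medulla. Its log2 fold change was -1.65 ± 0.30 (adjusted p = 0.0040, edgeR), and the call was lost by DESeq2 (0.181) and without doublets and members with T or B cell UMIs (0.103). Mmp12, the macrophage elastase gene (chr9:7344381-7369499, plus strand), was at 909, 266 and 686 CPM in the Aachen libraries, 846, 308 and 255 in those of Bonn and 1927, 1056 and 1148 in those of Hamburg, and changed by -1.13 ± 0.19 (adjusted p = 0.0011, edgeR). Within each dataset both were lower in OM and in IM than in cortex.

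Ifnb1, the interferon beta gene (chr4:88522025-88522774, minus strand), was carried by few cells. It had 43 UMIs in 24 cells of Aachen cortex, 6 UMIs in each of Aachen OM and IM, 0 in Bonn cortex and OM, 6 in Bonn IM, 32.9 in 10 cells of Hamburg cortex, 4.95 in Hamburg OM and 6.96 in Hamburg IM. Of the 1996 members, 53 held an Ifnb1 UMI and the highest single cell held 9.99. The log2 fold change was -2.56 ± 0.35 (adjusted p = 0.00015, edgeR) and rested on Aachen and Hamburg, since Bonn showed no fall. The gene had too few counts to be tested without either of these datasets. In thinned cells its share was 1.35% of Macrophage_1, 0.186% of Macrophage_2 and 0 of 9245 T and B cells (95% exact binomial upper bound 0.0399%).

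**Figure D4:**
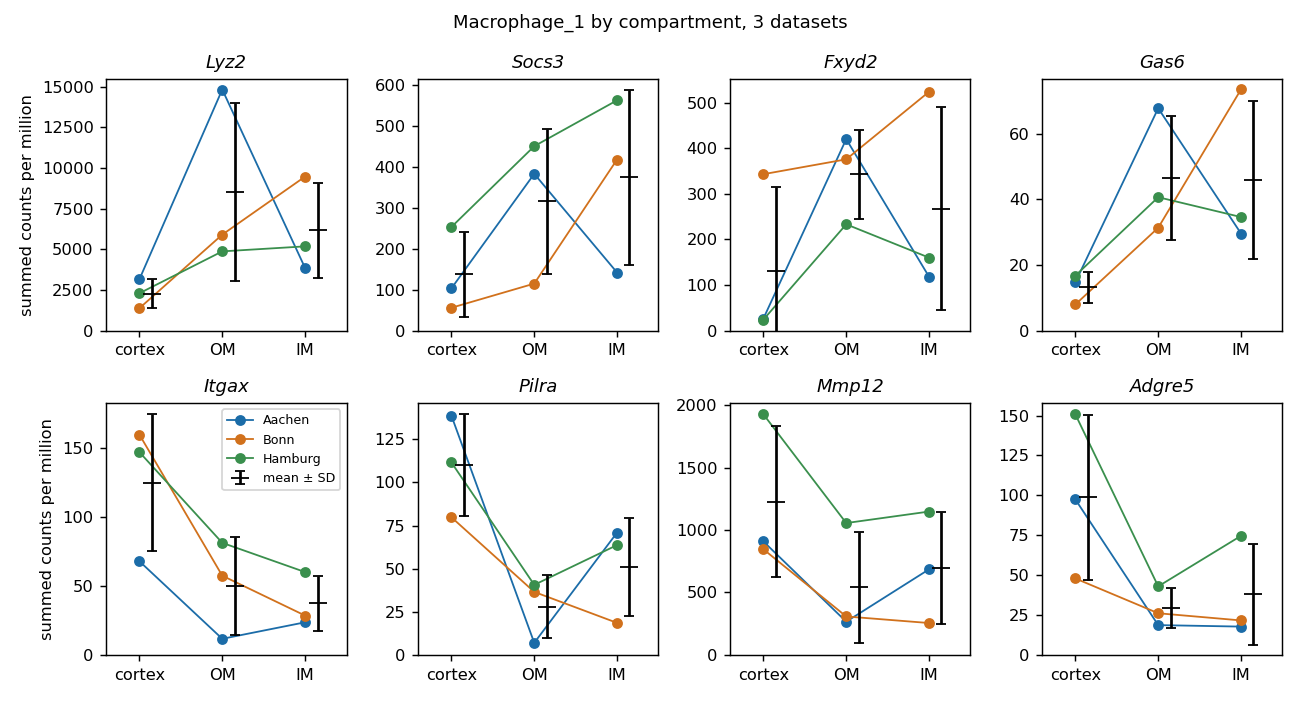
Summed level of 8 genes in Macrophage_1 by compartment, in CPM on a linear axis from 0. Coloured lines join the 3 compartments of 1 dataset, and the black mark is the mean with its SD over the 3 datasets. Within each dataset Lyz2, Socs3, Fxyd2 and Gas6 are higher in both medullary compartments than in cortex, and Itgax, Pilra, Mmp12 and Adgre5 are lower, while Aachen IM lies near Aachen cortex for Lyz2.

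Of 12 tested genes of lipid handling, 2 were called higher in the medulla (Pltp and Trem2). Of the 12, 7 had a fold change above 0, and the list median was 0.10. Of 10 tested genes of scavenging and efferocytosis, 1 was called higher (Gas6), 6 were above 0 and the median was 0.30. Of 20 tested genes of cathepsins and the lysosome, 1 was called higher (Cst3), 13 were above 0 and the median was 0.07. Over all 6261 genes tested, 0.303% were called higher and the median was 0.01. Cst3, which encodes cystatin C, rose by 0.76 ± 0.17 on the log2 scale, Cd14, a co-receptor for lipopolysaccharide, by 0.70 ± 0.16, Pltp, a phospholipid transfer protein, by 1.01 ± 0.22, Pf4 by 1.0 ± 0.22, Trem2 by 1.26 ± 0.28 and Gas6 by 1.68 ± 0.39, with adjusted p from 0.021 to 0.035 in edgeR's test. Gas6 was at 14.8, 67.7 and 29.6 CPM in Aachen cortex, OM and IM, at 7.98, 31.3 and 73.4 in Bonn and at 16.7, 40.6 and 34.6 in Hamburg, and did not overlap. Socs3, a feedback inhibitor of cytokine signalling, rose by 1.36 ± 0.28 (adjusted p = 0.014, edgeR) and Ahnak, a large scaffold protein, by 1.74 ± 0.36 (adjusted p = 0.014, edgeR). These calls were less firm. Without Hamburg IM all 8 were lost, with adjusted p from 0.11 for Gas6 to 0.282 for Cd14, and without Aachen OM all but Ahnak were lost, with adjusted p from 0.0592 for Pltp to 0.239 for Gas6. Of these 8, Cst3, Pf4, Trem2 and Gas6 were also lost without Aachen cortex (adjusted p 0.0958 to 0.232) and without Bonn IM (0.0507 to 0.162), Pltp, Pf4, Trem2 and Cd14 without Hamburg cortex (0.107 to 0.408), and Cd14 without Bonn cortex (0.162). The Ahnak call was also lost without the Aachen (0.0946) or the Bonn dataset (0.161), and its value was 3.42 without Hamburg cortex and 3.37 without the Hamburg dataset.

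Alox5, the 5-lipoxygenase of leukotriene synthesis, and Slc6a12, a betaine transporter of the osmotic response, were almost unseen in cortical members. Alox5 had 0 UMIs in the 3 cortical libraries and 4, 3, 66, 21.9 and 8.93 in Aachen OM, Bonn OM, Bonn IM, Hamburg OM and Hamburg IM, with 0 in Aachen IM. Against a floor of 3 counts over the cortical group, its pooled level was at least 8.63-fold higher in the medulla. Slc6a12 had 1 UMI in the cortex and 151 in the medulla, 98 of them in Bonn IM. Their adjusted p-values were 0.014 and 0.026 by edgeR. The Alox5 call was lost without Hamburg cortex (0.414) or Hamburg IM (0.0851), and that of Slc6a12 without Aachen cortex (0.229) or Hamburg IM (0.139), and the Slc6a12 value was 7.15 without Bonn cortex. Of 9 genes of the osmotic response, 7 were tested and Slc6a12 was the only one called, against 0.303% of all 6261 genes called higher.

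Of the 7 cDC2 markers 4 were tested, 2 were called higher in the medulla and 1, Itgax, was called lower, as given above. Over all 6261 genes tested, 0.303% were called higher and 0.256% lower. Cd209a, a C-type lectin that marks cDC2, rose by 1.99 ± 0.37 (adjusted p = 0.0047, edgeR), and Mgl2 by 0.74 ± 0.17 (adjusted p = 0.026, edgeR). Cd209a was confined to 59 members, with up to 34.8 UMIs in 1 cell, and 127 of its UMIs lay in 19 cells of Bonn IM. The Cd209a call was lost without Hamburg cortex (adjusted p = 0.53) or Hamburg IM (0.0623), and the Mgl2 call without Aachen cortex (0.16), Aachen OM (0.14), Bonn cortex (0.0658), Hamburg cortex (0.12) or Hamburg IM (0.206). The summed level of the 7 cDC2 markers, all detected, was 4.35 to 8.75 UMIs per 10000 in cortex, 8.19 to 13 in OM and 4.83 to 12.5 in IM, most of it Mgl2. Ccl17 was at 0 in 8 of the 9 libraries, and the part of cDC2 in the result was not tested. Fxyd2, a tubular subunit of the sodium pump, rose by 1.92 ± 0.34 in Macrophage_1 (adjusted p = 0.0036, edgeR) and the 8 proximal tubule markers, all detected and Fxyd2 among them, summed to 0.423 to 4.47 UMIs per 10000 in cortex, 2.49 to 4.96 in OM and 1.5 to 7.81 in IM. The only other proximal tubule marker tested, Ass1, had a log2 fold change of -1.31 ± 0.58 (adjusted p = 0.58). The Fxyd2 call was lost without Hamburg IM (0.0623), without the Hamburg dataset (0.241), by DESeq2 (0.669) and without doublets and members with T or B cell UMIs (0.225), and its value was 3.16 without Bonn cortex. Its log2 fold change was 2.25 ± 0.36 in Macrophage_2 (adjusted p = 0.0013, edgeR) and 2.08 ± 0.70 in T and B cells (adjusted p = 0.25). The part of tubular RNA was not tested.

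The 16 genes lower in the medulla had mixed roles. Mmp12, the protease gene Napsa, the signalling regulator Rgs1, Ccl3 and the antisense gene Gm42726 were among them. Besides Pilra, 4 encode other receptors of myeloid cells: Pilrb2 (-1.45 ± 0.29), Clec4n (-2.35 ± 0.49), Clec4a2 (-0.92 ± 0.17) and Sirpb1a (-1.25 ± 0.23), named together after their values were seen, with adjusted p from 0.0047 to 0.015 in edgeR's test. Sirpb1a was at 124, 37.3 and 88.7 CPM in Aachen cortex, OM and IM, at 128, 36.5 and 36.7 in Bonn and at 130, 72.0 and 52.8 in Hamburg, without overlap. Sirpb1a and Pilrb2 have close paralogs, among which reads may be divided. Without Hamburg IM the 4 calls were lost, with adjusted p from 0.0623 for Clec4a2 to 0.223 for Clec4n. Pilrb2 and Clec4n were also lost without Aachen OM (0.0658 and 0.0887) or Bonn IM (0.0533 and 0.0634), Clec4a2 without Aachen cortex (0.0984) or Aachen OM (0.0526), and Clec4n without Bonn cortex (0.0747). The Clec4n value was -4.84 without Hamburg OM.

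Ifit2, an interferon-induced gene, changed by -1.40 ± 0.26 (adjusted p = 0.0047, edgeR), Gbp8, a guanylate-binding protein gene, by -2.12 ± 0.40 (adjusted p = 0.0047) and Ifih1, a sensor of double-stranded RNA, by -1.11 ± 0.27 (adjusted p = 0.048). Gbp8 and Ifih1 are not on the interferon list used here. Of 18 genes of the interferon response, 15 were tested, 13 had a fold change below 0 and Ifit2 alone was called. The list median was -0.48 against 0.01 for all genes tested, of which 0.256% were called lower. The Ifit2 call was lost without Aachen cortex (0.103) or Hamburg IM (0.13), Gbp8 without Hamburg OM (0.134) or Hamburg IM (0.11), and Ifih1 without 5 of the 9 libraries (Aachen OM 0.193, Bonn IM 0.136, Hamburg cortex 0.769, Hamburg OM 0.155 and Hamburg IM 0.527). Ccl3 changed by -0.89 ± 0.19 (adjusted p = 0.014, edgeR). It was the only one of 16 tested chemokines called lower, while Pf4 was the only one called higher. Of the 16, 8 had a fold change above 0. The Ccl3 call was lost without Bonn cortex (0.293), Bonn IM (0.0507) or Hamburg IM (0.122), and its value was -0.49 without Bonn cortex.

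Both lists that the study used for macrophage origin held called genes. Each list held 3 genes, all tested. Over all 6261 genes tested, 0.303% were called higher and 0.256% lower. Of its markers of bone marrow-derived macrophages, Clec4a2 and Sirpb1a fell in the medulla and Ccr2, the monocyte chemokine receptor, had a log2 fold change of -0.99 ± 0.29 (adjusted p = 0.13, edgeR). Of its markers of self-renewable macrophages, Trem2 rose, while Ccl12 (0.14 ± 0.21) and Myo7a (0.46 ± 0.43) did not pass. The study took these markers from earlier work, and which of their members are counted here was chosen with earlier results of these data known.

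Of the lists that set Macrophage_1 apart, the chemokines held called genes, as given above, and the immediate early and heat shock genes did not. Socs3 was among the 10 genes leading Macrophage_1 over Macrophage_2, and Rgs1 and Mmp12 were among the 10 leading it over Isg+_Macrophage. These genes were also called. None of the 16 immediate early genes or 11 heat shock genes was called, with list medians of 0.01 and -0.13. Atf3 had a log2 fold change of -0.23 ± 0.16, Fos of 0.23 ± 0.23, Hspa1a of 0.21 ± 0.18 and Cxcl2 of 0.12 ± 0.19. Their spread lay between datasets, as the summed immediate early level was 68.4 to 163 UMIs per 10000 in Bonn and 503 to 550 in Hamburg. None of the 14 tested resident macrophage markers passed, C1qa changing by -0.14 ± 0.13, Cd74 by 0.08 ± 0.12 and Adgre1 by -0.12 ± 0.18. Of the 10 MHC class II genes 0 were called, of 10 tested complement genes 0, and of 10 tested genes of hypoxia and glycolysis 0, with medians of 0.06, 0.01 and 0.13. A fold change above 0 was seen in 9, 5 and 10 of them, against 3179 of all 6261 genes tested. In OM against cortex alone, 1 MHC class II gene was called.

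Compared singly, OM differed from cortex in 16 genes that were higher (0.256%) and 17 that were lower (0.272%), and IM differed in 7 higher (0.112%) and 8 lower (0.128%). Both comparisons used the same cortical libraries. Lyz2 changed by 1.80 ± 0.29 in OM and 1.51 ± 0.29 in IM (adjusted p 0.0012 and 0.023 by edgeR), Itgax by -1.26 ± 0.28 and -1.84 ± 0.30 (0.025 and 0.0023) and Adgre5 by -1.87 ± 0.29 and -1.31 ± 0.28 (0.00087 and 0.033). In OM, Lyz2 was lost without Aachen OM (adjusted p = 0.118), Adgre5 without Hamburg OM (0.0597), and Itgax without Aachen cortex (0.124), Aachen OM (0.443), Hamburg OM (0.0728) or Hamburg IM (0.0592). In IM, Lyz2 and Itgax were lost without Bonn IM (0.312 and 0.17) or Hamburg IM (0.411 and 0.0657), and Adgre5 without Aachen cortex (0.149), Aachen IM (0.0545), Bonn IM (0.237), Hamburg cortex (0.0752) or Hamburg IM (0.284). Lyz2 had 1.19 in OM without Aachen OM and 0.87 in IM without Bonn IM, and Itgax had -1.94 in OM without Hamburg cortex. Igf1, a growth factor of tissue macrophages, was called in OM (1.42 ± 0.32, adjusted p = 0.027) and had 0.96 ± 0.34 in IM (adjusted p = 0.54), and the OM call was lost without Aachen cortex (0.202), Aachen OM (0.68), Hamburg cortex (0.204), Hamburg OM (0.133) or Hamburg IM (0.0732). The OM count was 2 without Aachen OM, 17 without Hamburg IM, 19 without Aachen cortex, 52 without Bonn cortex, 53 without Aachen IM, 2 without the Aachen dataset and 8 without the Hamburg dataset. The IM count was 1 without Hamburg IM, 3 without Bonn IM, 23 without Bonn cortex, 44 without Aachen IM, 6 without the Bonn dataset and 4 without the Hamburg dataset. Directly compared, OM and IM differed in 0 of 6261 genes (0%) by edgeR and in 0 by DESeq2, with 229 at an unadjusted p under 0.05. The smallest p-values were those of Nhlrc2 (1.66 ± 0.39, OM over IM), Gadd45g (-1.13 ± 0.27) and Tnip3 (-1.37 ± 0.33), each with an adjusted p of 0.527 by edgeR. Without Bonn cortex 5 genes were called, and 1 without Aachen cortex or Aachen IM.

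Whether the medullary pattern differed from that of other cells was tested as an interaction. Against Macrophage_2, 0 of 5559 genes (0%) had a different medulla effect by edgeR and 0 by DESeq2, with 254 at an unadjusted p under 0.05. Lyz2 came nearest: its medulla effect was 0.98 ± 0.18 log2 units larger in Macrophage_1 than in Macrophage_2, where it was 0.67 ± 0.16, with an adjusted p of 0.0604. Itgax (difference -1.19 ± 0.29), Clec4n (-2.34 ± 0.60), Sirpb1a (-1.24 ± 0.32) and Gbp8 (-2.01 ± 0.51) followed, each with an adjusted p of 0.635. The count was 3 without the Aachen dataset, 2 without Aachen IM, and 1 without the Hamburg dataset, Aachen cortex, Hamburg OM or Hamburg IM. Of the 35 called genes, 27 could be tested in Macrophage_2 alone, 24 had the same direction there and 2 were called, Fxyd2 and Gm42726. In T and B cells alone 24 could be tested, 19 had the same direction and 0 were called. Few genes were called in either class at all. Of 4452 genes tested in Macrophage_2, 2 were called higher and 2 lower in the medulla. Of 10618 tested in T and B cells, 7 were called higher and 8 lower. The same-direction share over all genes tested is not given here. For a different medulla effect, 15 of 32 called genes had an unadjusted p under 0.05 (edgeR) against Macrophage_2, and 9 of 35 against T and B cells. Selection on the Macrophage_1 values favours such differences. Gm42726, an antisense gene (chr5:65587716-65591440) that was at 0 in Bonn and Hamburg, rested on Aachen only. Against T and B cells, 0 of 9163 genes (0%) differed by edgeR and 0 by DESeq2, with 394 at an unadjusted p under 0.05. The lowest adjusted p was 0.147, shared by 2 immunoglobulin genes and Spp1, with immunoglobulin genes being products of B cells. The count was 18 without the Aachen dataset, 3 without Aachen IM, 2 without Aachen OM, Bonn cortex, Hamburg cortex or Hamburg IM, and 1 without the Bonn or the Hamburg dataset.

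**Figure D5:**
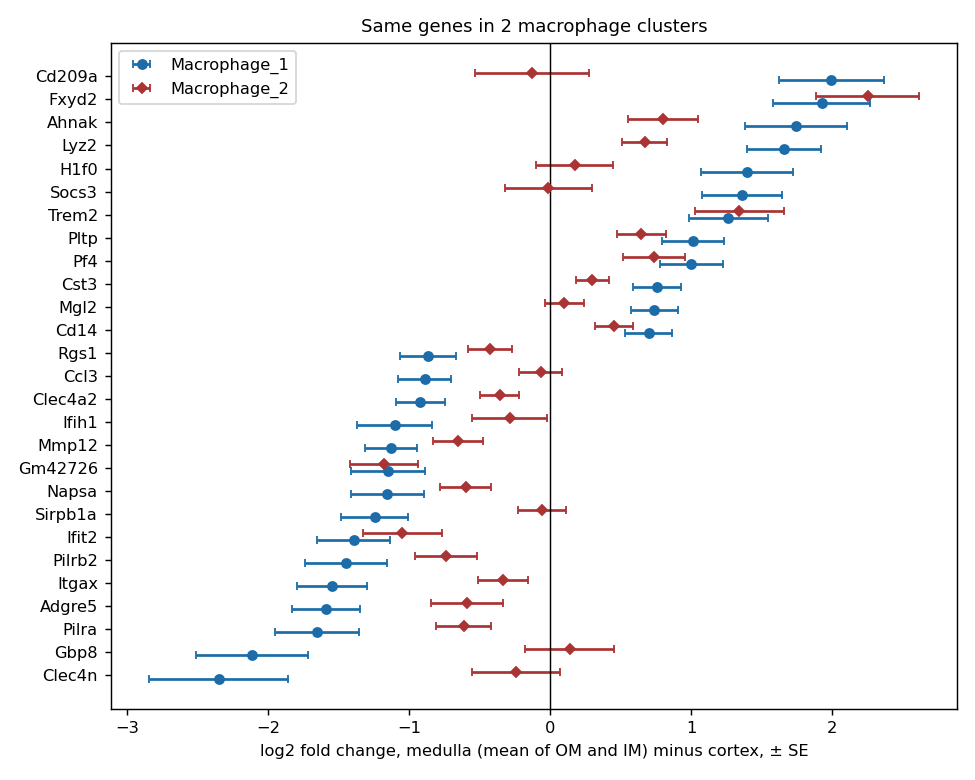
The log2 fold change between medulla and cortex in Macrophage_1 (circles) and Macrophage_2 (diamonds), with SE over the 3 datasets, for the 27 called genes of Macrophage_1 that could be tested in both. Genes were selected on the Macrophage_1 values, so the circles are far from 0 by choice. Fxyd2 is at 1.92 and 2.25 and Trem2 at 1.26 and 1.34, Sirpb1a is at -1.25 and -0.06 and Socs3 at 1.36 and -0.01.

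The called genes also had a pattern over the clusters of the medulla. Of the 19 that were higher in medullary Macrophage_1, 13 (68.4%) were higher still in Macrophage_3 than in Macrophage_1 over 5 medullary libraries, against 54.5% of all genes tested, and 1 was higher in Macrophage_2 over 6 libraries (5.26% against 58.6%). Of the 16 that were lower, 13 (81.3%) were lower still in Macrophage_3, against 41.9% of all genes tested, and 12 (75%) were higher in Macrophage_2. These are levels of clusters drawn from the same cells and were not tested. The called genes were also selected on the same medullary Macrophage_1 values. That selection by itself favours lower levels of the 19 genes, and higher levels of the 16, in any other cluster. The shares over all genes tested carry no such selection, so no conclusion is drawn from the contrast with them. Macrophage_3 had 0, 38 and 0 cells in the cortex of Aachen, Bonn and Hamburg and 7 to 873 in the medullary libraries, and the part of cells near the border between Macrophage_1 and Macrophage_3 was not tested.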

How the data were processed

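Immune cells were profiled by droplet sequencing in cortex, OM and IM. The authors aligned reads with Cell Ranger to mm10, kept cells in Seurat by genes detected and mitochondrial share, integrated the datasets, clustered and named the cells. The deposited table holds estimated counts per cell and gene, whole in Aachen and Bonn and 0.118% whole in Hamburg (tolerance 1e-09), with compartment, cluster and facility. Cells hold 201 to 3999 genes. Members and gene lists were chosen with earlier results of these data known.

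Levels are UMIs per 10000 of summed counts, over libraries with at least 20 cells, and log2 ratios add 0.1. Counts summed per library (at least 10 cells, rounded) were tested in edgeR 4.0.16 (TMM, low-count filter, quasi-likelihood) with dataset as block. Deviations from the compartment means correlated at 0.559 to 0.852 within datasets and -0.853 to 0.422 between them. Interactions had a library block. Named genes were the resident macrophage markers, the 10 highest and 10 lowest identity genes, up to 10 called genes per direction and contrast with 1 sign in all datasets, and list members called; the remaining called genes were named after their values were seen. DESeq2 1.42.0 and the other settings of the closing section were alternatives, and the test was tested on simulated data. Doublets were called with Scrublet in scanpy 1.11.5 (304 cells) and kept in the main analysis. Identity comparisons carry no test. Values of a few genes that the rules name are not reported here.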

Additional observations from a re-analysis of the deposited data

How the results depend on the processing

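Counts of genes called in Macrophage_1 moved with the settings. For medulla against cortex (35 genes) the count was 6 by DESeq2, 71 with no filter on low counts, 16 in cells thinned to 500 UMIs and 9 without doublets and macrophages with T or B cell UMIs, and 8 to 78 with 1 library or dataset left out. For OM against cortex (33 genes) these were 3, 55, not moved, 16 and 2 to 53, and 52 with at least 30 cells per library. For IM against cortex (15 genes) they were 0, 35, 1, 0 and 1 to 44, with 23 at 30 cells and 8 with no TMM. Without the replicate block of dataset the count was 0 in each of these comparisons. For OM against IM (0 genes) it was 1 with no filter, 5 at 30 cells and 0 to 5 with 1 left out. For the difference from Macrophage_2 (0 genes) it was 1 with no TMM, 3 with no filter, 1 in thinned cells and 0 to 3 with 1 left out, and for that from T and B cells (0 genes) 14 with no filter, 1 in thinned cells, 2 at 30 cells and 0 to 18 with 1 left out. No fold change of a named gene changed direction under any setting in which the gene was tested, and the cause of the moved counts was not tested. The share of Macrophage_1 was 37.2% of resident macrophages against 9.85% of all cells, and 97 genes in place of 175 were higher or lower in all libraries after thinning. Few cells in Bonn cortex and OM limit the precision of every comparison with them.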
